A study of Mus musculus with 473 samples.

Results

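Vip, Crhbp, Prkcd and Mbnl3 are 4 of the 28952 features in a table of RNA levels from single mouse cells. They were chosen by their FPKM levels in these data, from earlier results that placed them high in P7.MB.3, the smallest of the 13 clusters in the authors' labels, so their levels in that cluster are a description and carry no test. Cells were sorted for green fluorescence from Th:EGFP mice, a hemizygous bacterial artificial chromosome line on the outbred Swiss Webster background, with enhanced green fluorescent protein (eGFP) under the regulatory sequences of Th, the gene of tyrosine hydroxylase. All 5 groups carry this transgene. They are forebrain (FB, named in the labels as hypothalamus for the embryos) and midbrain (MB) at embryonic day 15.5 (E15.5), and forebrain, midbrain and olfactory bulb (OB) at postnatal day 7 (P7). Each group came from 1 pool, of 4 embryos or of 5 pups, and the P7 tissue alone was digested for longer and cleared on a density gradient. Of 473 cells, 396 passed the authors' quality control. No group has a second pool, so no test between groups was made, and every SD below is a spread over cells.

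Vip encodes vasoactive intestinal peptide, a secreted neuropeptide that acts on the G protein-coupled receptors encoded by Vipr1 and Vipr2 and raises cyclic AMP in the receiving cell. In the ventral midbrain Vip is known as a marker of a small population of dopaminergic neurons in the periaqueductal gray and dorsal raphe, apart from the larger populations of the substantia nigra and ventral tegmental area. Crhbp encodes a secreted protein that binds corticotropin-releasing hormone and urocortin and keeps them from their receptors. Prkcd encodes the delta isoform of protein kinase C, which answers to diacylglycerol without calcium and marks restricted neuron classes in several brain regions, and Mbnl3 encodes a muscleblind-like RNA-binding protein that regulates splicing.

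In GENCODE M21 (build GRCm38) all 4 are protein-coding genes. Vip (ENSMUSG00000019772) is on the plus strand at chr10:5639218-5647617. Crhbp (ENSMUSG00000021680) is on the minus strand at chr13:95431371-95444924, Prkcd (ENSMUSG00000021948) on the minus strand at chr14:30595354-30626210 and Mbnl3 (ENSMUSG00000036109) on the minus strand at chrX:51117269-51206532. Vip is the member whose RNA lay almost wholly in 1 cluster, so the 250 bases before its start are shown here, from the RefSeq promoter table on GRCm38.p6, plus strand, chr10:5638968-5639217, with a match to TGACGTC in capitals.

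Vip upstream: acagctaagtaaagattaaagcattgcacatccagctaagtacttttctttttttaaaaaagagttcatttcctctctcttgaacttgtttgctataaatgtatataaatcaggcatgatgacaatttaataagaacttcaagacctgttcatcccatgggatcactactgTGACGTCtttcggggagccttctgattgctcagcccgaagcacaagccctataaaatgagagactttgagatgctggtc

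TGACGTC is the first 7 letters of the palindrome TGACGTCA, the cyclic AMP response element, and the VIP gene is known to respond to cyclic AMP. The match covers bases -79 to -73 before the start. Searched on both strands, TGACGTC was present in the 250 bases before the start in 914 of the 32851 entries of that table (2.78%), and TGACGTCA in 508 (1.55%). The Vip stretch held the shorter string only, and the same stretches of Crhbp, Prkcd (2 starts) and Mbnl3 held neither. A match describes letters and says nothing here of binding.

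The cells were spread over 5 library plates, and on 2 P7 plates the columns and the labels that share a name did not belong together. On the other 3 plates the number of genes in a cell's label and the number at FPKM (fragments per kilobase of transcript, scaled to library size) of 1 or more in its column correlated with r of 0.996 to 0.999. On TH02_16.18.20 and TH02_20.16.18, r was -0.0338 and -0.0519 by name, and 0.999 on both after the columns of these plates were exchanged well by well. Values are therefore given first for the 249 passed cells of the 3 matching plates, with 4 P7.MB.3 cells, and then for all 396 cells with the exchange, with 10. The median FPKM sum per P7 MB cell was 493126 on the matching P7 plate and 205564 and 268038 under the labels of the exchanged plates, so FPKM levels on these plates are lower throughout, and ranks within a cell are given as well. On the matching plates the median sum was 1054300 in E15.5 FB and 972789 in E15.5 MB, against 517940 in P7 FB and 545503 in P7 OB. Orders, highest values and shares that set E15.5 cells beside P7 cells are not corrected for this. Th was at FPKM of 1 or more, the level at which a cell is here said to have a gene, in 29 of 30 P7 MB cells but in 27 of 84 E15.5 FB and 26 of 88 E15.5 MB cells, so many sorted embryonic cells had no measured Th. Where every value of a gene was 0 it is called listed at 0 and not absent, because genes that every cell uses (6 were checked) were also at 0 in 0.937% of their values on the matching plates. That share was 0% in the P7 MB cells of these plates and in the 10 P7.MB.3 cells. It thus gives no rate of missed genes for those cells.

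Vip was the most abundant of the 4 genes and the most restricted. The 4 P7.MB.3 cells of the matching plate had Vip at 15715, 12599, 5056 and 17.2 FPKM. The 6 of the exchanged plates had it at 11118, 4632, 2420, 2031, 1677 and 1301 FPKM. Thus 9 of 10 lay above 1000 FPKM, and the exception was 1 cell of the matching plate. The mean was 8347 ± 7132 FPKM (SD, n = 4 cells), and 5657 ± 5486 over the 10. In those 9 cells Vip ranked between 2 and 7 among all features of its cell and made up 0.497% to 2.96% of the cell's summed FPKM. In the exception it ranked 3818. That cell lay in plate row G, as did the cells of the same plate at 15715 and 5056 FPKM. The part of well position in its value was not tested.

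Outside P7.MB.3 no passed cell reached 1000 FPKM of Vip, among 245 cells on the matching plates or 386 with the exchange. Vip was at 1 FPKM or more in 31 of the 245 (12.7%, exact 95% interval 8.76% to 17.5%), and 27 of these had it below 5 FPKM, with a highest value of 4.61. The other 4 had it at 10 FPKM or more. Low values of this kind were seen in 19 of 73 cells outside the cluster on the matching P7 plate. On the E15.5 plates, which hold no P7.MB.3 cell, they were seen in 0 of 86 and 8 of 86 cells, all 8 in wells of plate row G. Many of the 19 on the P7 plate lay in rows A and G, the rows of its P7.MB.3 cells. With the exchange, nearly all low values under the labels of TH02_16.18.20 lay in rows A and G too. The part of well position in the low values was not tested, and the 12.7% is not read as a share of cells that express Vip. P7.MB.3 held 98.0% of the Vip FPKM summed over all cells on the matching plates and 94.5% with the exchange. The interval covers counting of cells only.

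A few cells of other clusters had Vip between these low values and the P7.MB.3 level. On the matching plates 2 cells were at 100 FPKM or more, a P7.MB.1 cell at 444 and a P7.OB.1 cell at 121. The exchange added 4, P7.MB.1 cells at 703 and 347, a P7.OB.1 cell at 676 and a P7.FB.2 cell at 812. Crhbp, Prkcd and Mbnl3 were listed at 0 in all 6 of these cells. The 3 P7.MB.1 cells had Slc6a3, the dopamine transporter, at 94.6 to 356 FPKM and Th at 725 to 1812, so they were Th and Slc6a3 cells with Vip and without the other 3 genes.

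On the 2 exchanged plates the P7.MB.3 label and Vip above 1000 FPKM rarely coincided when columns were taken by name. The 5 P7.MB.3 labels of TH02_20.16.18 then had a median Vip of 0.177 FPKM and 1 of them exceeded 1000. The single P7.MB.3 label of TH02_16.18.20 had 812 FPKM by name, a high value that passes to the P7.FB.2 cell above with the exchange. Also by name, 3 cells outside the cluster on TH02_16.18.20 and 2 on TH02_20.16.18 exceeded 1000, the highest at 4632. With the exchange, all 5 of those labels lay at 1301 to 11118 FPKM, the single P7.MB.3 cell of TH02_16.18.20 lay at 2420, and the count above 1000 outside the cluster was 0 on both. The exchange was derived from gene numbers, without Vip.

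**Figure D1:**
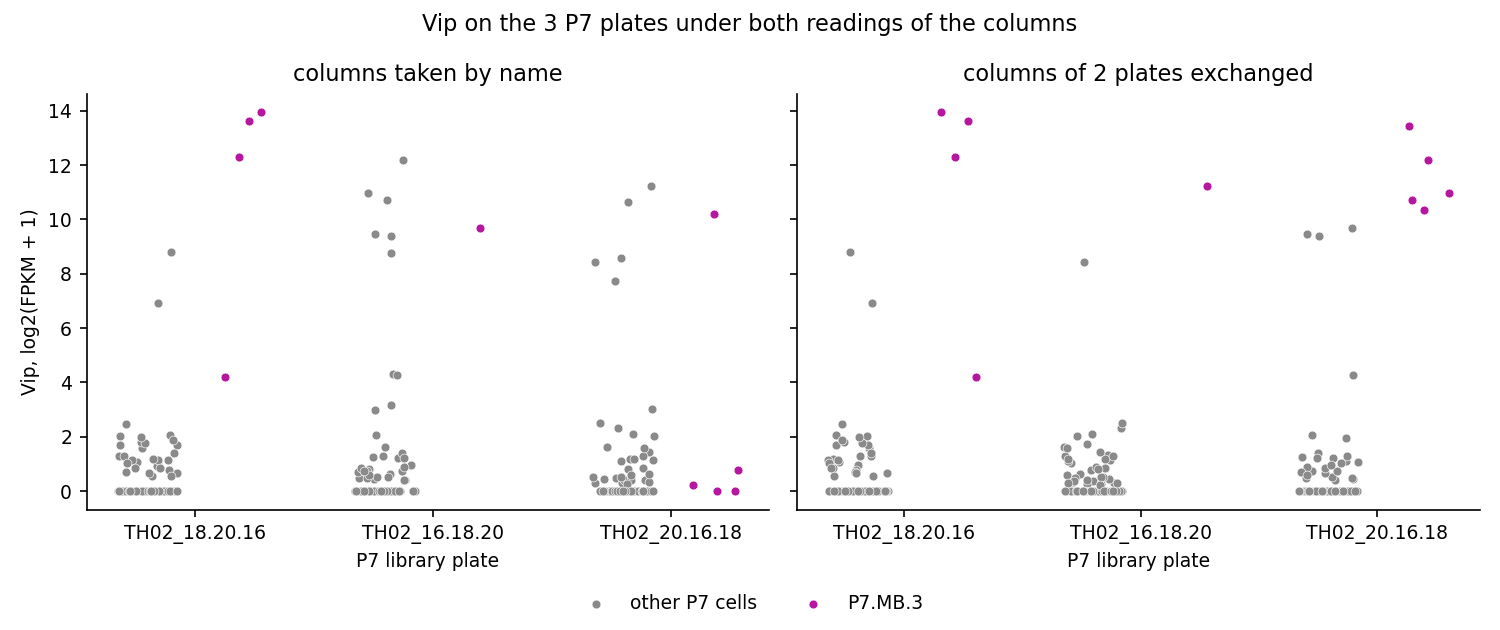
Vip as log2(FPKM + 1) in each passed P7 cell (points) on the 3 P7 library plates, with P7.MB.3 cells in magenta and other cells in grey, for columns taken by name (left) and with the columns of 2 plates exchanged (right). By name, 5 grey cells exceed 1000 FPKM (about 10 on this axis); with the exchange, 0 do.

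Among the 13 clusters, Vip in P7.MB.3 exceeded the next cluster by more than the larger SD of the pair, in both sets of cells. The next cluster was P7.MB.1 at 30.5 ± 114 FPKM (n = 15) on the matching plates, where 97.2% came from 1 cell, and P7.OB.1 at 41.2 ± 152 (n = 20) with the exchange. No other neighbours in the order differed by more than their spread. At E15.5 the highest value in any cell was 26.3 FPKM, in E15.MB.2, and only 5 of 84 FB and 5 of 88 MB cells had Vip. All of these E15.5 cells lay in wells of plate row G. The cell with the highest Vip of the series, in P7.MB.3, lay in row G of another plate. The part of well position in these values was not tested.

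Crhbp, the binding protein, was present in most P7.MB.3 cells and in scattered cells of several other clusters. On the matching plate it was at 202, 113, 86.5 and 0 FPKM in the 4 cells, a mean of 100.4 ± 83.1. With the exchange the 6 further cells had 171, 115, 62.3, 40.1, 0 and 0 FPKM, and the mean over 10 was 79.1 ± 72.04. The cell with low Vip had Crhbp at 86.5, inside the range of the others. In the rest of P7 MB, Crhbp was found in 1 of 26 cells on the matching plate and 4 of 65 with the exchange, 3 of them in P7.MB.2.

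Elsewhere Crhbp reached the same or higher levels in single cells. P7.FB.2 followed P7.MB.3 on the matching plates at 20.6 ± 51.7 FPKM, from 3 of 21 cells at 133, 147 and 153, and had it in 12 of 55 cells with the exchange. E15.FB.1 stood at 17.6 ± 94.9 with 3 of 60 cells, and its highest cell, at 683 FPKM, was also the highest in the series. E15.MB.2 had it in 4 of 20 cells, at 15.3 ± 37.6, with 4 of 9 cells on TH01_15.14 and 0 of 11 on TH01_14.15. Crhbp was listed at 0 in all 16 P7 OB cells of the matching plate, whereas 6 of 68 had it with the exchange, up to 417 FPKM in P7.OB.1. Most of those 6 cells carried labels of TH02_20.16.18. The part of the plate was not tested for E15.MB.2 or for P7 OB. P7.MB.3 did not exceed the next cluster by more than the larger SD in either set, and it held 17.8% of the Crhbp FPKM of all matching-plate cells. No P7.FB.1 or P7.MB.4 cell had it, among 26 and 15 with the exchange.

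Prkcd, the kinase, was split between P7.MB.3 and the embryonic cells. The 4 matching P7.MB.3 cells had 176, 130, 106 and 0 FPKM (mean 103 ± 74.7), and the cell at 0 was the one with low Vip. The 6 exchanged cells had 104, 16.8 and 5.49 FPKM, and 3 were at 0, which brought the mean over 10 to 53.8 ± 67.7. On the matching plates P7.MB.3 exceeded the next cluster by more than the larger SD. With all 10 cells it did not.

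The next clusters for Prkcd were all from E15.5, with E15.MB.2 at 11.1 ± 36.9 FPKM (2 of 20 cells), E15.MB.1 at 10.4 ± 27.4 (10 of 68) and E15.FB.1 at 8.35 ± 29.1 (7 of 60). Median FPKM sums were higher at E15.5 than at P7, as given above, and this order is not corrected for that. Of the E15.5 cells with Prkcd, 2 of 7 in FB and 2 of 12 in MB had Th. In P7 forebrain and olfactory bulb Prkcd was nearly missing, found in 1 of 81 and 2 of 68 cells with the exchange. In the rest of P7 MB it was found in 3 of 26 cells on the matching plate, at 24.5, 25.3 and 12.5 FPKM, and in 5 of 65 with the exchange.

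Mbnl3, the splicing regulator, had its highest level outside the midbrain. In P7.FB.1 it was present in 9 of 10 cells on the matching plates, with a lowest value of 0, a median of 105 and a highest of 226 FPKM (mean 108 ± 69.6), and in 22 of 26 cells with the exchange (61.1 ± 59.6). P7.MB.3 came next, with 192, 36.4, 8.54 and 0.165 FPKM in the 4 cells (mean 59.3 ± 89.8). The 6 exchanged cells had 32.98, 7.79 and 1.67 FPKM, with 3 at 0, for a mean over 10 of 27.9 ± 59.2. The P7.MB.3 mean rested on 1 cell, which gave 80.96% of the sum over 4 and 68.7% over 10, and the difference between the top clusters lay within the spread. E15.FB.1 followed at 21.8 ± 86.8 FPKM, from 5 of 60 cells that reached up to 451. Those 5 cells were all on plate TH01_14.15 (5 of 29 cells, against 0 of 31 on TH01_15.14), and the part of the plate in this was not tested. Of the 5, 1 had Th, whereas all 12 P7 FB cells with Mbnl3 on the matching plate had it.

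Within P7 MB, Mbnl3 was found mostly in P7.MB.3, in 3 of its 4 cells on the matching plate and 6 of 10 with the exchange. It was in 1 of 26 other P7 MB cells on the matching plate (at 1.58 FPKM) and 2 of 65 with the exchange. The highest of these, a P7.MB.2 cell at 10.2 FPKM, lay above the median of 4.73 over the 10 P7.MB.3 cells. P7.MB.3 held 99.3% of the P7 MB sum for Mbnl3 but 8.38% of the sum over all matching-plate cells. The corresponding shares were 86.9% and 21.6% for Prkcd and 95.3% and 17.8% for Crhbp. Only for Vip were both shares high, at 98.6% and 98.0%.

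**Figure D2:**
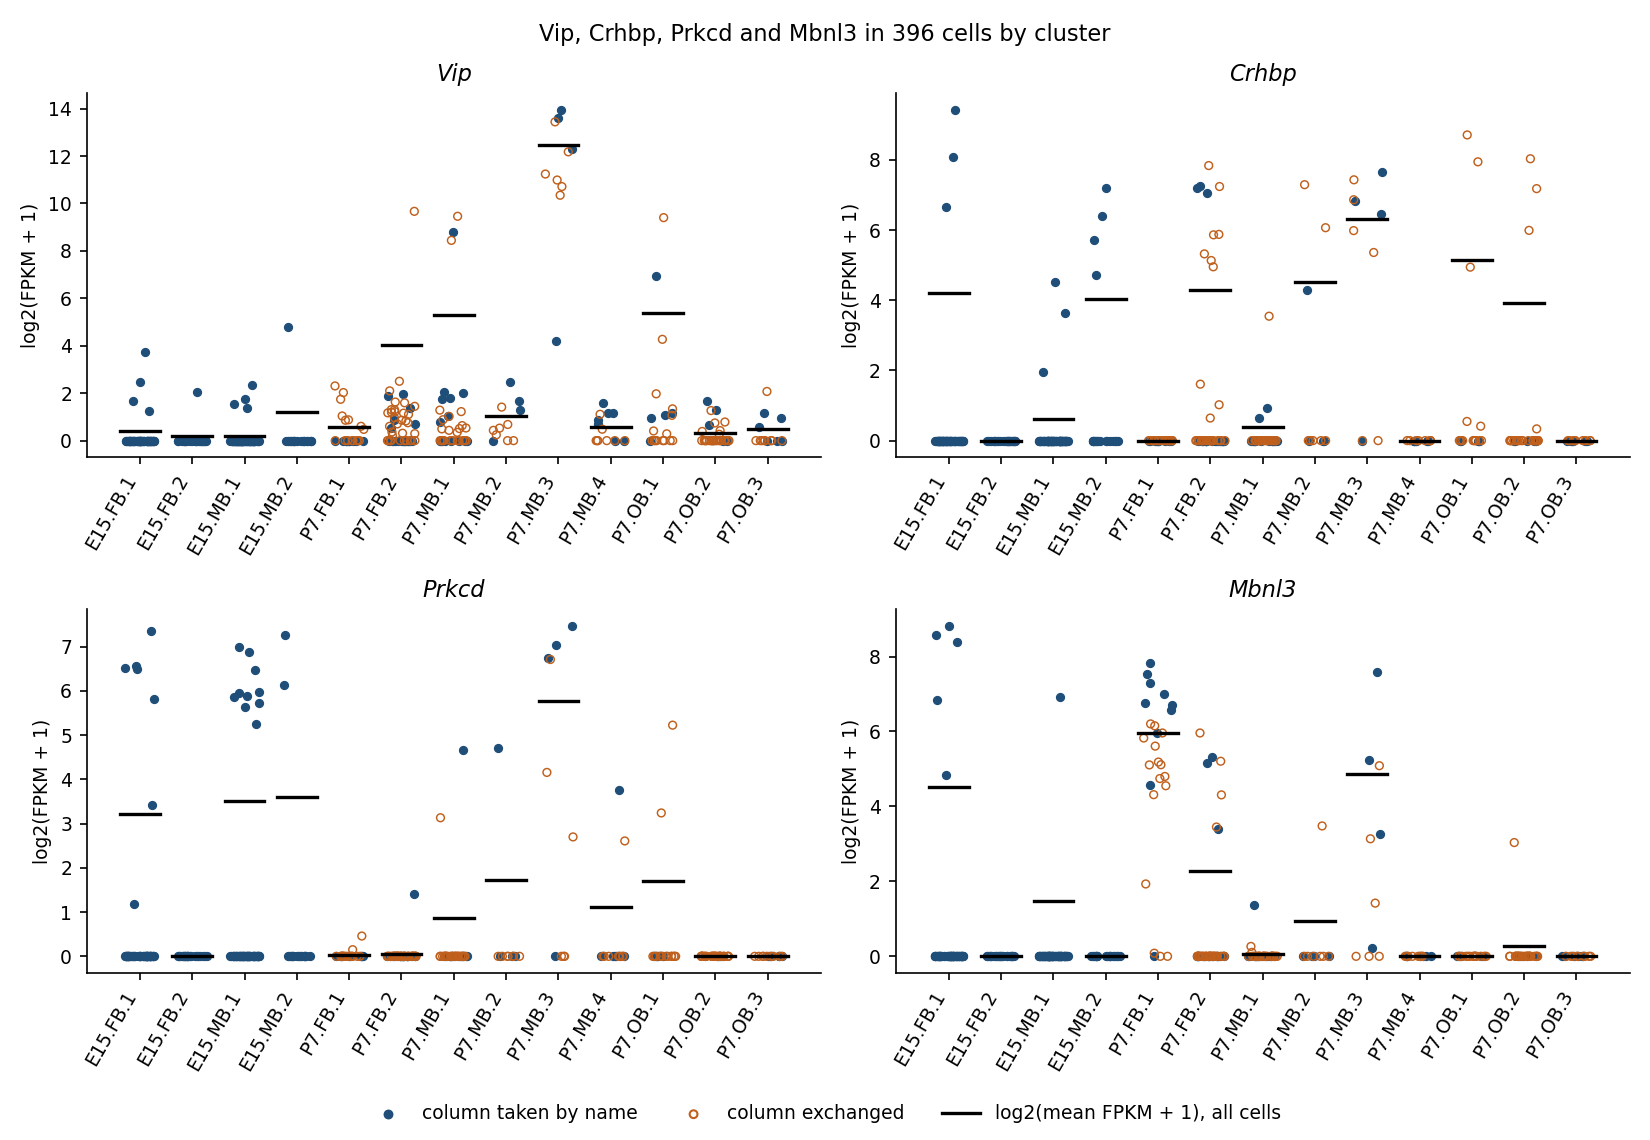
Level of each gene as log2(FPKM + 1) in every passed cell (points) by cluster, filled blue where the column was taken by name and open orange where it was exchanged; bars are log2(mean FPKM + 1) over all cells of the cluster. Vip is high in P7.MB.3 with few cells elsewhere, Crhbp and Prkcd also occur in scattered cells of other clusters, and Mbnl3 is found in 22 of 26 P7.FB.1 cells.

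The 4 genes were also counted together in single cells. On the matching plate 1 of 4 P7.MB.3 cells had all 4 and the other 3 had 3. With the exchange, 2 of 10 had all 4, 6 had 3, 1 had 2 and 1 had Vip alone. Outside P7.MB.3, 3 members together were found in 0 cells on the matching plates and in 1 P7.FB.2 cell with the exchange. Since membership of the cluster was set by the authors from expression, this shows how the genes combine within it and is no test. Across the P7 MB cells of the matching plate (n = 30) the Pearson r of log2(FPKM + 1) with Vip was 0.67 for Crhbp, 0.75 for Prkcd and 0.72 for Mbnl3. Across the 13 cluster means it was 0.49, 0.61 and 0.31. All these values share 1 library plate for P7 MB, and the P7 MB figures rest on 4 P7.MB.3 cells. The genes were chosen as high in P7.MB.3, so positive r values follow in part from the choice.

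On the scale log2((mean + 1)/(mean + 1)), which understates differences of low genes, P7.MB.3 over the other P7 MB cells was 8.77 for Vip, 5.84 for Crhbp, 4.94 for Prkcd and 5.83 for Mbnl3 on the matching plate, and 7.85, 4.04, 4.67 and 4.61 with the exchange. All 4 were thus at least 2-fold higher, as the choice of genes fixes, where 14.7% of the 12360 features tested (mean FPKM of at least 1 in either group) were, and 13.7% with the exchange. At least 2-fold lower were 35.6% and 17.7%. The median log2 fold of all tested features was -0.37 on the matching plate and 0.03 with the exchange. The 4 matching P7.MB.3 cells had a median of 5194 genes in their labels, against 6014 in P7.MB.1, 5877 in P7.MB.2 and 7490 in P7.MB.4, and the part of this in the lower values below was not tested.

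The 10 P7.MB.3 cells had most listed genes of dopamine synthesis, storage and reuptake, checked as markers of transmitter type, with Gch1 as an exception. Th was at 506 to 3006 FPKM in all 10, and eGFP at 176 to 1080. The dopamine transporter Slc6a3 (8.82 to 390), the vesicular monoamine transporter Slc18a2 (4.43 to 65.4) and the decarboxylase Ddc (22.6 to 499.6) were in all 10 as well. Against other P7 MB cells the log2 fold was -2.44 (-2.32 with the exchange) for Slc6a3, -3.50 (-3.09) for Slc18a2, -1.59 (-0.77) for Ddc and -0.52 (-0.43) for Th. Gch1, the first enzyme in making the cofactor of Th, was below 1 FPKM in all 10 cells, against 22 of 26 other cells with it and a mean of 135. In all, 4 of 8 tested genes of dopamine synthesis, storage and reuptake were at least 2-fold lower and 0 higher on the matching plate, where 35.6% of all tested features were lower. With the exchange 3 of 8 were lower and 0 higher, beside 17.7% lower.

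Most regional markers of the other midbrain dopaminergic neurons were lower in P7.MB.3, with a few exceptions. Aldh1a1 (a retinaldehyde dehydrogenase) and Chrna6 (a nicotinic receptor subunit) were below 1 FPKM in all 4 matching cells, and had means of 1285 and 390 in the other P7 MB cells. With the exchange 2 of 10 cells had Aldh1a1 and 0 had Chrna6. Of 8 genes associated with the substantia nigra, 7 were at least 2-fold lower (6 with the exchange), with Igf1, Aldh1a7, Anxa1 and Ndnf listed at 0 in the 4 matching cells and Serpine2, a protease inhibitor, at a log2 fold of -4.73 (-4.11 with the exchange). Of 8 associated with the ventral tegmental area 6 were in both sets, with Otx2, Tacr3 and Lpl listed at 0 in these cells and Neurod6 below 1 FPKM in all 10. These counts stand beside 35.6% of all tested features lower on the matching plate and 17.7% with the exchange. Kcns3, a potassium channel subunit of the nigral list, was higher (log2 fold 2.02, 1.79 with the exchange), as was Calb1, the calcium-binding protein calbindin, of the tegmental list (1.39 and 1.62), which was in all 10 cells. The neuropeptide gene Cck, also of the tegmental list, differed by less than 2-fold (-0.30 and -0.47) and was in 8 of the 10 cells. Cck and Calb1 had means of 804 and 251 FPKM in the matching cells, out of 1081 for the 8 tegmental genes together. The summed level of those 8 genes had a median of 521 FPKM in the 10 cells, against 466 in the 65 others.

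Transcription factors of midbrain dopaminergic neurons were found in P7.MB.3, while a few other genes of dopaminergic identity were lower. En1 was in 10 of 10 cells, Nr4a2 in 9, Foxa2 and Foxa1 in 8 each, Lmx1a in 7, Pitx3 and Lmx1b in 6 each and En2 in 2. Of 11 tested genes of the identity list, which holds these factors, 1 was at least 2-fold higher on the matching plate, Foxa2 at 1.77 (1.66 with the exchange). The 3 lower ones were Aldh1a1, Chrna6 and the vesicle protein gene Slc10a4 at -1.24 (-0.90). With the exchange 2 were higher, Foxa2 and Lmx1b (0.65 on the matching plate, 1.04), and 2 lower, Aldh1a1 and Chrna6. Among all tested features 14.7% were higher and 35.6% lower on the matching plate, and 13.7% and 17.7% with the exchange. The counts of lower genes in this list were near or below those shares, and are not read as a result about the list. The summed level of the 12 listed genes had a median of 415 FPKM in the 10 cells and 1204 in the 65 others.

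Of the 4 genes listed for periaqueductal and dorsal raphe dopaminergic neurons, 3 were tested on the matching plate and all 3 were at least 2-fold higher, namely Vip, which was chosen for this, Pnoc, the precursor of nociceptin, and Npw, neuropeptide W. With the exchange 2 of 4 were higher, Vip and Pnoc, and 1 lower. Among all tested features 14.7% were higher on the matching plate and 13.7% with the exchange. Pnoc was at 94.6, 68.5, 0 and 0 FPKM in the matching cells and between 0 and 53.7 in the exchanged ones, in 6 of 10 cells against 2 of 65 others. Its log2 fold was 3.96, and 3.94 with the exchange. Npw was at 31.3 FPKM in 1 cell and 0 in the other 9, for a log2 fold of 1.11 on the matching plate and -0.18 with the exchange. Pdyn, prodynorphin, was the lower one, listed at 0 in all 10 cells and found in 6 of 65 others. The labels give no position within the midbrain, so the cluster is called P7.MB.3 here. All 7 serotonergic genes, Tph2 and Fev among them, all 4 noradrenergic and all 3 cholinergic genes were listed at 0 in all 10 cells. Among the GABAergic genes reported here, Gad1 did not exceed 0.103 FPKM, Gad2 was below 1 FPKM in all 10 cells and Slc32a1, the vesicular transporter, was listed at 0. Of the vesicular glutamate transporters, Slc17a6 was in 2 of the 10 cells, at 25.1 and 31.95 FPKM, and in 49 of 65 others, and Slc17a7 and Slc17a8 were listed at 0. Markers of non-neuronal cells were low, with summed levels of 0 to 15.3 FPKM for 6 astrocyte genes, 0 to 37.8 for 6 oligodendrocyte genes, 0 to 8.21 for 6 microglial genes and 0 to 15.9 for 5 endothelial genes in the 10 cells.

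The cell with low Vip differed from the others in its peptides. It had Adcyap1, the PACAP precursor, at 223 FPKM and was the only 1 of the 10 with it, as it was for Npw. Its Slc6a3, at 8.82 FPKM, was the lowest of the 10, while its Foxa2, at 105, was the highest. Th in this cell was 1299.9 FPKM, within the range of the other cells.

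**Figure D3:**
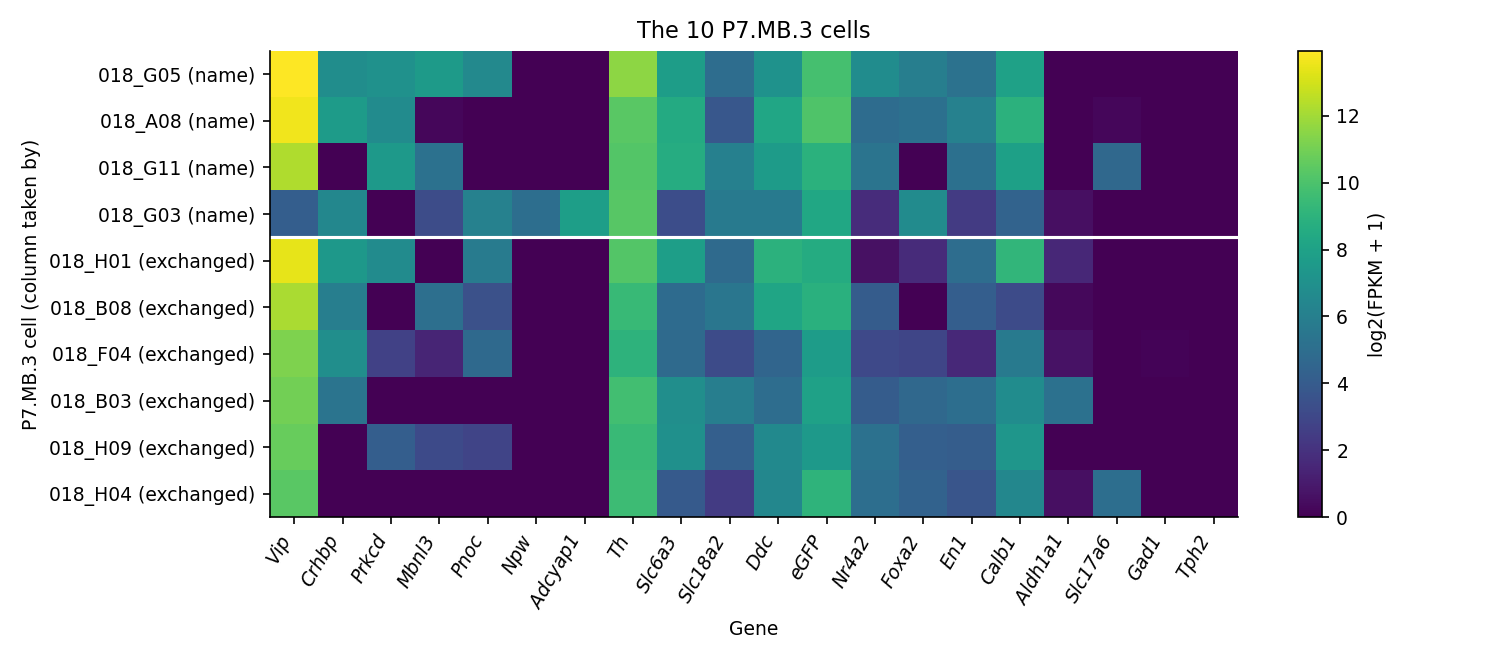
Levels as log2(FPKM + 1) (colour) of the 4 genes and selected markers in the 10 P7.MB.3 cells, with the 4 cells of the matching plate above the white line and the 6 exchanged cells below it, each sorted by Vip. Vip and Th are present in all rows, Gad1 and Tph2 are at or near 0, and the row with the lowest Vip is the one with Adcyap1 and Npw.

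The receptors for the 2 peptide systems were not found in P7.MB.3. Vipr1 and Vipr2 were listed at 0 in all 30 P7 MB cells of the matching plate, and Vipr2 had its highest mean in P7.OB.3, at 10.2 ± 19.9 FPKM (n = 15) with the exchange. Adcyap1r1, the PACAP-preferring receptor, was listed at 0 in all 10 P7.MB.3 cells and was found in 24 of 26 other P7 MB cells on the matching plate (mean 46.7 FPKM) and 61 of 65 with the exchange. With the exchange it was in at least 33.3% of the cells of each of the other 12 clusters. Crhr1, the receptor whose ligands Crhbp binds, was also at 0 in the 10 cells, against 9 of 26 and 19 of 65 others, and 13 of 15 P7.MB.4 cells. Crh was listed at 0 in the 10 cells too, and had its highest mean in P7.OB.1, at 85.2 ± 174 FPKM (7 of 20 cells). Ucn and Ucn2 were listed at 0 in all P7 MB cells. In the VIP and PACAP list, 1 of 5 tested genes was at least 2-fold higher (Vip) and 2 lower (Adcyap1r1 and Ramp3, a receptor accessory protein), and in the CRH and urocortin list 1 of 3 was higher (Crhbp) and 2 lower (Crhr1 and Crh). Vip and Crhbp were higher as their choice fixes. Of all tested features 14.7% were higher and 35.6% lower on the matching plate, and 13.7% and 17.7% with the exchange.

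Prkcd and Mbnl3 were set beside their gene families. Both were chosen as high in P7.MB.3, so their own higher values here follow from the choice. Of 6 tested genes of the protein kinase C family, Prkcd was the 1 at least 2-fold higher. Prkcz and Prkca were lower, with log2 folds of -1.63 and -1.50 (-1.22 and -1.89 with the exchange), and Prkci was listed at 0 in the 4 matching cells and found in 2 of 10. Prkcb and Prkce differed by less than 2-fold in both sets. Among 12 genes of muscleblind, Celf and Rbfox splicing regulators, Mbnl3 was the 1 that was higher. Its paralogue Mbnl2 was lower at -1.51 (-1.53), and Mbnl1 stood at -0.02 (-0.63). Rbfox1 was at -3.30 (-3.54), Rbfox3 at -2.46 (-1.41), Rbfox2 at -1.59 (-1.11) and Celf5 at -1.44 (-1.10), while the other Celf genes stayed within 2-fold. These shares of lower genes, 3 of 6 and 5 of 12, were the same with the exchange and stand beside 35.6% and 17.7% of all tested features. The shares of higher genes, 1 of 6 and 1 of 12 in both sets, stand beside 14.7% and 13.7%.

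**Figure D4:**
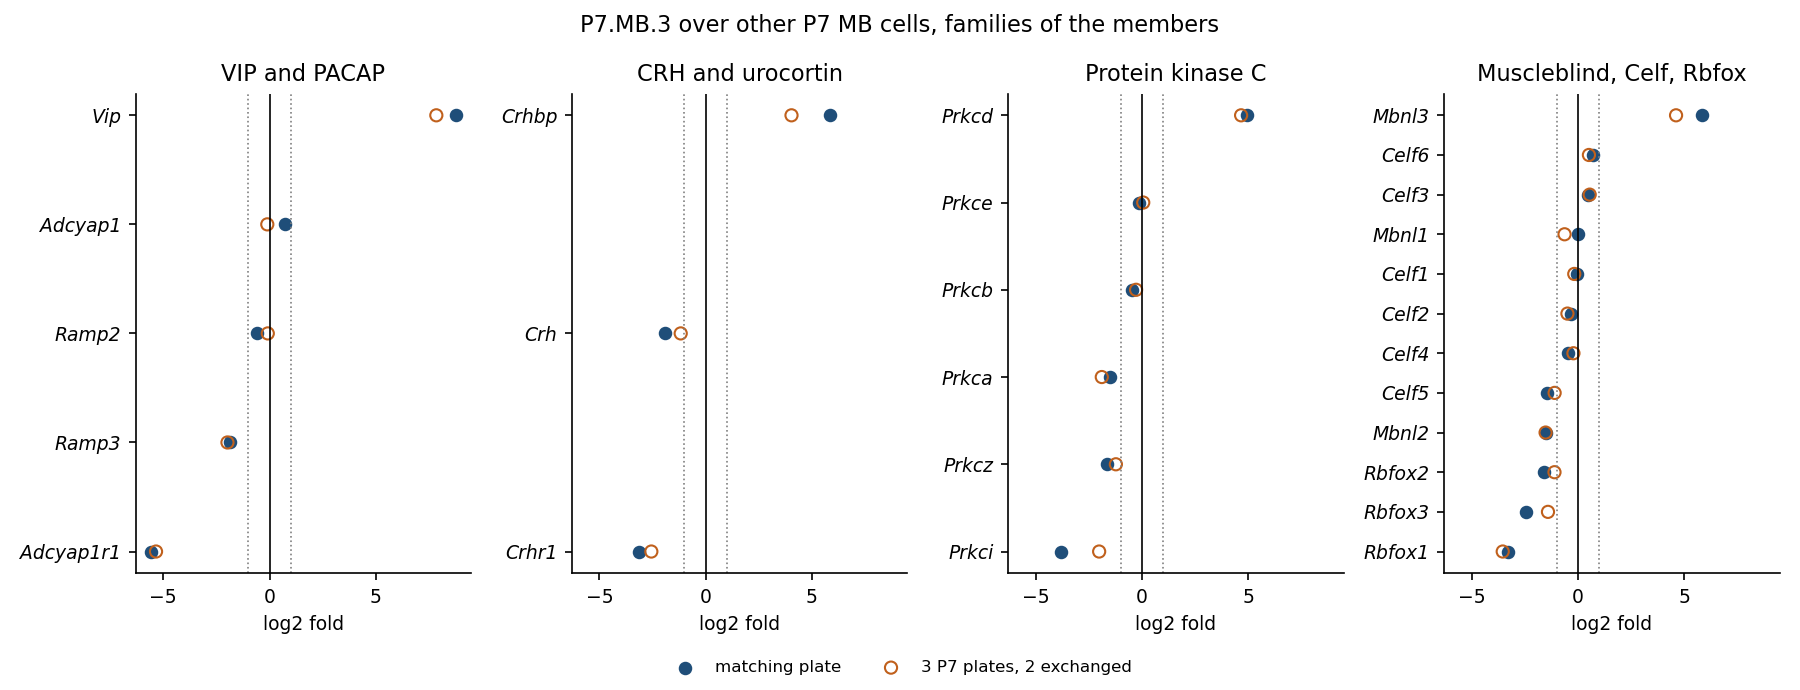
log2 fold of P7.MB.3 over other P7 MB cells for the tested genes of each member's family, on the matching plate (filled blue) and over the 3 P7 plates with 2 exchanged (open orange); dotted lines mark 2-fold. The studied gene, chosen as high in P7.MB.3, is the highest in each panel and the only one above the upper dotted line. Adcyap1r1, Crh and Crhr1 in both sets, and Prkci on the matching plate, were listed at 0 in P7.MB.3, so the place of these points is set by the pseudocount of 1.

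Genes of peptide storage and of cyclic AMP signalling showed no common direction. Pam, the enzyme that amidates peptides such as VIP, was in all 10 cells at a log2 fold of 1.08 (0.94 with the exchange). Scg2, secretogranin II, was lower at -1.96 (-1.81). Of 14 tested genes of peptide processing and dense-core vesicles, 2 were at least 2-fold higher and 4 lower on the matching plate, and 0 and 2 with the exchange. Of 18 genes of cyclic AMP signalling 2 were higher, the cyclase Adcy5 at 2.20 (1.86) and the kinase subunit Prkar2b at 1.22 (1.47), and 4 were lower, with Crem and Adcy2 among them listed at 0 in the matching cells. With the exchange 3 of the 18 were higher and 3 lower. Among 17 other neuropeptide genes tested 5 were higher and 8 lower, and 5 and 9 of 19 with the exchange. Over all tested features 14.7% were higher and 35.6% lower on the matching plate, and 13.7% and 17.7% with the exchange. Trh, which encodes thyrotropin-releasing hormone, was in 3 of 4 matching cells and none of the 6 exchanged ones (2.85, 1.91), and the fold of Tac1, the substance P precursor, came from 1 cell (4.76, 2.41). Penk, proenkephalin, and Grp, gastrin-releasing peptide, were lower at -3.91 (-1.79) and -2.95 (-2.67).

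The genes most like each member were found by Pearson r of log2(mean + 1) over the 13 clusters, restricted to genes that reached a mean of 20 FPKM in some cluster and were present in at least 50% of the cells of the member's highest cluster. For Vip they were Cutal (0.94, 0.89 with the exchange), Kcnk16 (0.90, 0.86), Serpinf2 (0.89, 0.84), Rhoc (0.85, 0.77) and Nbl1 (0.83, 0.83). All 5 were found in 50% of the 4 matching P7.MB.3 cells. Kcnk16, a 2-pore potassium channel, had a mean of 37.9 FPKM in P7.MB.3 and at most 2.12 in any other cluster, and it ranked first with the exchange. It was also the 1 of the 5 that met the same restriction there. Serpinf2 was found in 2 of the 10 cells, Rhoc in 3 and Nbl1 in 4, and Cutal, in 7, had a mean of 17.7 FPKM, below the limit of 20.

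For Prkcd the 5 were Sh3bgr (0.93, 0.86), Rer1 (0.84, 0.64), Ccdc134 (0.84, 0.90), Cntn4 (0.82, 0.79) and Uncx (0.82, 0.75), of which 3 met the restriction with the exchange, Rer1, Cntn4 and Uncx. The homeobox gene Uncx and 3 of the other 4 had E15.MB.2 as their highest or next highest cluster. For Mbnl3 they were Map7 (0.86, 0.80), Gabre (0.84, 0.86), Ap1s2 (0.79, 0.64), Sgsm1 (0.77, 0.71) and Ppp1r17 (0.75, 0.69), and all but Map7 met it with the exchange. Gabre, the epsilon subunit of the GABA-A receptor, had 135 FPKM in P7.FB.1 and 31.4 in P7.MB.3, the same 2 clusters that led for Mbnl3. For Crhbp the r values fell with the exchange and 1 of the 5 genes, 1810022K09Rik, met the restriction there. The 5 were Zfp229 (0.87, 0.35), Sh3bgr (0.81, 0.48), Tmem35b (0.81, 0.23), Hmgn5 (0.78, 0.23) and 1810022K09Rik (0.77, 0.04). With the exchange the gene most like Crhbp was Vip, at 0.54. These r values share cells and plates, come from clusters of 4 to 68 cells on the matching plates, and carry no p.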

How the data were processed

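FPKM values were made and deposited by the authors with HISAT2 and Cuffnorm on mm10, per the submitters' processing notes. Tool versions and the annotation release are not given in the sources used here. FPKM values are not counts, so the depth per cell is unknown, and the gene number in each label (2146 to 8600 in passed cells) stands in for it. Smart-Seq2 libraries had 20 preamplification and 14 enrichment cycles, per the labels. Features were given symbols through GENCODE M21 (28637 of 28952). Cells were grouped by the age, region and cluster in the labels, and the 77 cells that failed quality control were used only in the closing section. No 2 columns of the matching plates were identical, and no doublet caller was run, since wells were filled by sorting. Means over cells were compared as log2((mean + 1)/(mean + 1)) with pandas 2.3.3, and 95% intervals on shares of cells are exact (Clopper-Pearson) and for counting error alone. The fold calculation was tested on simulated data. No test was made, because cells from a single pool do not replicate a condition. Up to 4 genes per list and direction were named by log2 fold where the higher group's mean reached 10, the families of the 4 genes could be named in full, and genes singled out for 1 cell were chosen after their values were seen. The 4 genes and the lists were chosen with earlier results of these data known. Some genes of these lists are not reported here and enter no list count. Alternatives were the treatment of the 2 plates, the pseudocount, the averaging, rescaling, filters and thresholds, and leaving out cells, the last chosen after the data were seen.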

Additional observations from a re-analysis of the deposited data

Results flagged for a closer look

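Among the 5 P7 MB cells of the matching plate that failed the authors' quality control, which enter no comparison, the highest values were 9207 FPKM for Vip, 194 for Crhbp, 133 for Prkcd and 95.1 for Mbnl3. They came from 2 cells that each had all 4 genes. The first had Vip at 9207, Crhbp at 194, Prkcd at 55.7 and Mbnl3 at 95.1 FPKM, with Slc6a3 at 452, and the second had 6108, 29.8, 133 and 23.8 FPKM, with Slc6a3 at 137. Their labels give 4152 and 5147 genes, and all 4 genes at once were found in 1 of the 4 passed P7.MB.3 cells of that plate. With the exchange, failed cells of other regions also had Vip above 1000 FPKM, 2 from P7 OB at 3633 and 1163 and 1 from P7 FB at 1606, each with Crhbp, Prkcd and Mbnl3 listed at 0. Their labels give 1044 genes for the P7 OB cell at 1163, 830 for the P7 FB cell and no number for the P7 OB cell at 3633. No passed cell had fewer than 2146.

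A single cell stood far above the others of its cluster for Vip in P7.OB.1 (121 FPKM, 5 cells), for Crhbp in P7.MB.2 (18.5, 4 cells), for Prkcd in P7.MB.2 (25.3, 4 cells) and for Prkcd in P7.MB.4 (12.5, 7 cells). These are 4 of 13 sets of 4 to 10 cells looked at. In the last 3 of them every other cell was listed at 0, and a set of that kind is always marked. The count of 4 is therefore not set against a chance rate.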

How the results depend on the processing

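The log2 folds of the 4 genes were positive under every alternative run, from 6.82 to 11.46 for Vip, 2.62 to 6.86 for Crhbp, 2.20 to 5.37 for Prkcd and 1.42 to 8.53 for Mbnl3. Only for Mbnl3 did any value move by more than the SD over the P7.MB.3 cells, to 1.42 on the labels of TH02_16.18.20 alone (1 P7.MB.3 cell) and 2.59 on those of TH02_20.16.18 alone, both with exchanged columns. Leaving out each P7.MB.3 cell of the matching plate in turn gave 8.27 to 9.18 for Vip, 5.26 to 6.25 for Crhbp, 4.55 to 5.35 for Prkcd and 3.92 to 6.24 for Mbnl3. Of the 2-fold counts, 1819 higher and 4400 lower features became 531 and 973 with a pseudocount of 10, 1146 and 1530 with a mean of at least 10, and the lower count became 2119 with the exchanged plates and 2742 with the mean of log2(FPKM + 1). The 2 cells outside P7.MB.3 with Vip at 100 FPKM or more became 6 with the exchange and 13 with columns taken by name, 4 at 10 FPKM and 0 at 1000. The cause was not tested, apart from fewer features or cells passing a stricter limit. No paired analysis was possible because the cells of a group come from 1 pool and no label pairs cells across groups. The unknown depth per cell limits every value of 0.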
